A study of Mus musculus with 6 samples.

Results

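The cell cycle genes described here are 35 genes of known function, 17 that act in DNA replication or at its onset and 18 that act in mitosis. They were chosen by name, and all 35 were found among the 55401 gene IDs of the files through GENCODE mouse release 21. RNA came in bulk from cells isolated from the lamina propria of the colon, the connective tissue layer under the epithelium. The mice of both groups, controls included, were male Apc Min/+ animals of 5 to 6 weeks, which carry a truncated copy of Apc, a brake on Wnt signalling, and develop intestinal adenomas. Mice of 3 libraries were gavaged on alternate days with atorvastatin at 20 mg/kg, an inhibitor of HMG-CoA reductase, and mice of the other 3 libraries with the vehicle, 2% Tween 80. The labels used here do not say how long treatment lasted or how many animals made up a library, and p-values therefore speak only for the spread among the libraries, part of which may be technical.

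A cell that enters the cycle first activates E2F factors, which switch on the genes of DNA replication. The replicative helicase, made of the subunits Mcm2 to Mcm7, is loaded on origins by Cdc6 and Cdt1 in G1 and is set moving in S phase. Genes of mitosis are held back in G1 by the DREAM complex and are expressed in G2 and M, when cyclin B with Cdk1, the Aurora kinases and Plk1 drive the division. In the colonic mucosa the dividing cells are mostly epithelial cells of the crypt base, B cells of lymphoid follicles, and activated lymphocytes and plasmablasts.

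No cell cycle gene passed the test between atorvastatin and vehicle. Of the 35 genes 31 reached 1 FPKM (fragments per kilobase of gene, scaled to the sequenced total) in at least 3 libraries and were tested with limma on log2(FPKM + 1) among 13590 genes; Cdc6, Ung, Bub1 and Cenpf were not. At a false discovery rate of 0.05, 0 of the 31 passed, and the background over all genes was 0%. Replication genes had a median log2 difference of -0.06, atorvastatin minus vehicle, mitotic genes one of 0.00, and all genes tested one of -0.02. At an unadjusted p under 0.05 there was 1 member, Bub1b, a spindle checkpoint kinase with higher values under atorvastatin, where the background was 7.17% of all genes (3.13% higher, 4.04% lower). Bub1b was also the 1 member whose groups did not overlap, against a background of 14.4%. In bulk samples fewer dividing cells and less RNA per dividing cell cannot be told apart.

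Values summed to between 355787 and 456064 FPKM per library, with 13303 to 13703 genes at 1 FPKM or more. Low values of short genes with a single transcript fell in part in steps, as single fragments would give, of 0.0466 to 0.0621 FPKM for a gene of 1 kb if the authors used the GENCODE exon length. A smaller step means a deeper library, and the smallest was in vehicle library 3. Only 37.2% to 40.8% of those values lay within 0.15 of a whole number of steps, where an even spread gives 30%, so fragment counts were not recovered. Markers of the labelled compartment were present in every library: 5 leukocyte markers summed to 275.1 to 408.4 FPKM and 8 fibroblast markers to 1088 to 1451 FPKM. Immunoglobulin genes took between 27.9% and 47.9% of the summed FPKM, the most in atorvastatin library 2.

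Promoters of the members are shown because E2F and DREAM, the regulators that set the phase of these genes, act there. RefSeq's table for build GRCm38.p6 held 30 promoters of 29 members (not Mcm4, Gins2, Ccne2, Ccna2, Aurkb and Tpx2), and the 250 bases before the start were searched on both strands. E2F letters were TTCGCGC or TTGGCGC or TTCCCGC or TTTGCCGC or TTTGGGCGC. Letters of the CHR, the element bound by DREAM in mitotic genes, were TTTGAA or TTCGAA or TTTAAA, and CCAAT was read as the box bound by NF-Y. Matches of the same kind that overlap were merged into 1, and matches of different kinds may overlap. The 2 promoters with the most matches in each group follow, where Mcm6 tied with a promoter of Mcm7 at 4 matches and was taken for its higher mean FPKM. They are written 5′ to 3′ on the strand of the gene, with the matched letters in capitals: Mcm5 (chr8:75109259-75109508, plus strand) and Mcm6 (chr1:128359706-128359955, minus strand) for replication, Top2a (chr11:99024190-99024439, minus strand) and Cdk1 (chr10:69352913-69353162, minus strand) for mitosis.
Mcm5: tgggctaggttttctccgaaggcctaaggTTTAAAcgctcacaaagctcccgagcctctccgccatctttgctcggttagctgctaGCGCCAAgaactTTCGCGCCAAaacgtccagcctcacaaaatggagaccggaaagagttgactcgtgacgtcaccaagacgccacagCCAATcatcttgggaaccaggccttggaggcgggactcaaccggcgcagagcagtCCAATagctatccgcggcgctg
Mcm6: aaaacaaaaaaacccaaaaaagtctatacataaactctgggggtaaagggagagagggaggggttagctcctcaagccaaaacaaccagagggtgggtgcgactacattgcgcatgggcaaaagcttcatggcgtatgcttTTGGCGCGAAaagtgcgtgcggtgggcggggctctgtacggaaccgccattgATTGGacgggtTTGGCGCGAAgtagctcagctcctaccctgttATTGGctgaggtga
Top2a: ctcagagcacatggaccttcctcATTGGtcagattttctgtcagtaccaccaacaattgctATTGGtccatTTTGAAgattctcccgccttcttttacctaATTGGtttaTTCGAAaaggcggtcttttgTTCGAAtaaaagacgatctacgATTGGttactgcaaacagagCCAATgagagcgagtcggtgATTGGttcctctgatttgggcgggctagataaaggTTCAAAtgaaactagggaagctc
Cdk1: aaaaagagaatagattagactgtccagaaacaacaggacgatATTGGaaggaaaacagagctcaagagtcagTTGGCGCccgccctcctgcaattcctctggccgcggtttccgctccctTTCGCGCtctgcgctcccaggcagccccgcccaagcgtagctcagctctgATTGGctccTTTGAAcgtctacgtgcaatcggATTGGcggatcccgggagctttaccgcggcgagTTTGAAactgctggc
The Mcm6 promoter holds E2F letters at 109 to 100 and at 46 to 37 bases before the start, and no CHR letters. The Top2a promoter holds 4 CHR matches and 6 CCAAT boxes and no E2F letters. The Cdk1 promoter holds both kinds, with E2F letters at 178 to 172 and at 130 to 124 bases and CHR letters at 71 to 66 and at 15 to 10 bases before the start. The Mcm5 promoter has CHR letters as well as 2 E2F matches, so the printed replication promoters are not alike.

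CHR letters stood in 12 of 15 mitotic promoters and in 4 of 15 replication promoters, while 19.3% of the 11866 promoters of tested genes held them. CCAAT stood in 14 of the mitotic and 9 of the replication promoters, against 34.6%. Both together stood in 11 mitotic promoters and in 3 replication promoters, against 6.79%. E2F letters were the reverse, in 6 replication promoters and 3 mitotic promoters, against 12.1%. The 15 replication promoters came from 14 genes, as Mcm7 had 2, and both of these held E2F letters and CCAAT. The same order was found in other genes of both phases that are listed below: CHR letters with CCAAT stood in 13 of 41 promoters of other mitotic genes and in 5 of 48 of other replication genes, and E2F letters in 4 and 16 of them. Promoters of these other genes came from 37 genes in each list, so some genes count more than once. A match is a description of the letters and not of binding.

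The plot of each gene's level shows how far the members lie apart. Replication members had the higher levels, with a median of 5.30 FPKM over the 15 tested against 2.80 FPKM over the 16 mitotic members tested. Pcna, the sliding clamp that holds DNA polymerases on their template, was the most abundant, above 94.2% of the genes tested. FPKM are scaled by gene length, and the order of genes depends on the lengths the authors used, on which the sources here are silent.

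**Figure D1:**
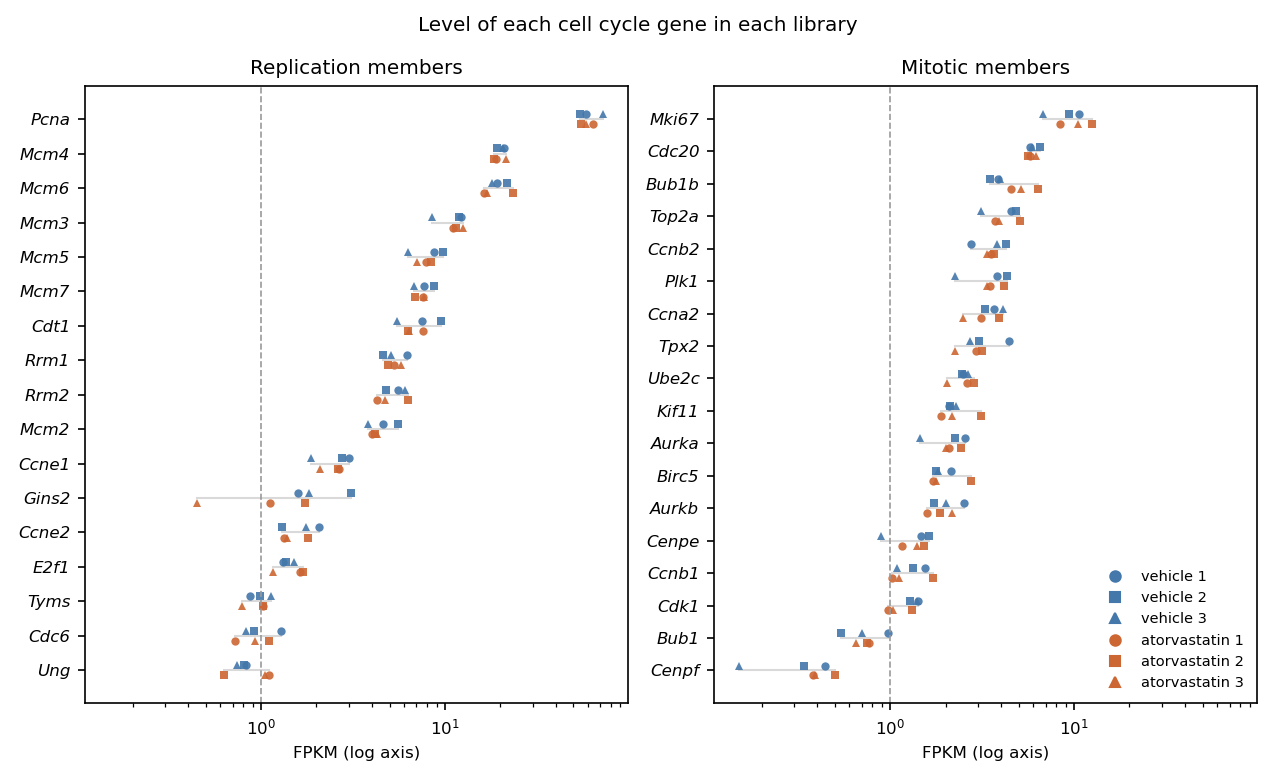
FPKM (log axis) of the 17 replication and the 18 mitotic genes in each of the 6 libraries, with the grey line from the lowest to the highest library and the dashed line at 1 FPKM. Colours give the group and symbols the library number. The groups overlap for every gene but Bub1b, and the levels run from 0.15 FPKM of Cenpf in vehicle library 3 to 72.5 FPKM of Pcna in the same library.

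Among the genes that license origins, the helicase subunits did not have equal levels, although they form a single ring. Mcm4 had 20.9, 19.3 and 20.7 FPKM in vehicle libraries 1, 2 and 3 and 19.0, 18.6 and 21.4 FPKM in atorvastatin libraries 1, 2 and 3. Mcm6 had 19.2, 21.8 and 18.02 FPKM with vehicle and 16.3, 23.6 and 16.9 FPKM with atorvastatin. Mcm4 varied by 1.155-fold over all 6 libraries, as little as any member, and Mcm6 by 1.44-fold with its extremes both in the atorvastatin group. Mcm3 had 12.3, 11.9 and 8.45 FPKM with vehicle and 11.0, 11.5 and 12.6 FPKM with atorvastatin. Mcm5 had 8.70, 9.76 and 6.30 FPKM with vehicle and 7.86, 8.42 and 7.05 FPKM with atorvastatin. Mcm2 had 4.62, 5.53 and 3.82 FPKM with vehicle and 4.02, 4.16 and 4.27 FPKM with atorvastatin. In Mcm2, Mcm3, Mcm5 and Mcm7, which had 7.55 FPKM on average, vehicle library 3 was the lowest of all 6 libraries, and the atorvastatin libraries lay inside the vehicle range or, in Mcm3, just past its top. The log2 differences of the subunits ran from -0.12 for Mcm2 (SE 0.13) to 0.11 for Mcm3 (SE 0.16), with n = 3 per group, and 5 of the 6 were negative. The lowest adjusted p in limma among them was 0.826. Mcm7 shares 321 of 4426 exon bases with Ap4m1 (3.68 FPKM) and 64 with Cops6 (13.6 FPKM), both on the other strand. With libraries set to equal sums without immunoglobulin and mitochondrial genes the differences of Mcm4, Mcm5, Mcm6 and Mcm7 turned positive. They were 0.03, 0.00, 0.00 and 0.01, where the median over all genes tested was 0.04.

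The loader Cdt1 had 7.47, 9.56 and 5.46 FPKM with vehicle and 7.63, 6.26 and 6.38 FPKM with atorvastatin, all atorvastatin values within the vehicle range (log2 difference -0.11, SE 0.19). Its partner Cdc6 had 1.28, 0.91 and 0.83 FPKM with vehicle and 0.72, 1.10 and 0.93 FPKM with atorvastatin, and did not pass the filter. Gins2, a subunit of the GINS complex that activates the helicase, had the most negative difference of the members. It had 1.59, 3.08 and 1.83 FPKM with vehicle and 1.12, 1.73 and 0.45 FPKM with atorvastatin, and the groups overlapped in atorvastatin library 2. Its log2 difference was -0.61 (SE 0.27, 95% interval -1.26 to 0.04, limma adjusted p = 0.696). The value was -0.37 without atorvastatin library 3, and with a pseudocount of 0.1 in place of 1 it was -1.03. Gins2 (ENSMUSG00000031821, chromosome 8, 120578633 to 120589304, minus strand, mm10) shares 2758 of its 4097 exon bases with Gse1, a gene on the other strand at 5.05 FPKM. Whether strand was used in counting is unknown from the sources here, so reads of Gse1 may be part of the Gins2 values.

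Genes that make nucleotides for replication had overlapping groups. Rrm1, the large subunit of ribonucleotide reductase, had 6.18, 4.58 and 5.10 FPKM with vehicle and 5.28, 4.88 and 5.78 FPKM with atorvastatin. Rrm2, the small subunit made in S phase, had 5.58, 4.79 and 6.09 FPKM with vehicle and 4.28, 6.28 and 4.74 FPKM with atorvastatin. Both subunits had means near 5.3 FPKM, and the atorvastatin values of Rrm2 reached below and above the vehicle values (log2 difference -0.10, SE 0.15). Tyms, thymidylate synthase, had 0.87, 0.99 and 1.13 FPKM with vehicle and 1.03, 1.02 and 0.79 FPKM with atorvastatin (log2 difference -0.04, SE 0.12). It passed the filter with 3 libraries at 1 FPKM, from both groups.

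Pcna (ENSMUSG00000027342, chromosome 2, 132249162 to 132253314, minus strand, mm10) had 58.8, 53.9 and 72.5 FPKM with vehicle and 63.8, 54.6 and 58.7 FPKM with atorvastatin. Unlike the Mcm genes it was highest in vehicle library 3, and the atorvastatin values lay within the vehicle range (log2 difference -0.06, SE 0.15). The pseudogene Pcna-ps2 was listed at 1.58 FPKM on average. Ung, which removes uracil from new DNA, had 0.83, 0.81 and 0.74 FPKM with vehicle and 1.10, 0.63 and 1.05 FPKM with atorvastatin, and was not tested. At the G1 to S boundary, E2f1 and the E-type cyclins, which activate Cdk2, were at low levels. E2f1 had 1.32 to 1.51 FPKM with vehicle and 1.16 to 1.68 FPKM with atorvastatin, Ccne1 had 1.88 to 2.99 and 2.09 to 2.64 FPKM, and Ccne2 had 1.30 to 2.06 and 1.34 to 1.81 FPKM. For all of these the atorvastatin range crossed or lay in the vehicle range, with log2 differences of 0.05, -0.03 and -0.10. Ccne2 shares 609 of 3495 exon bases with Ints8 on the other strand.

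Of the 15 replication members tested 12 had lower means with atorvastatin and 3 higher, where 53.0% of all genes tested were lower. That split depends on scaling: with equal sums without immunoglobulin and mitochondrial genes, 5 were lower and 10 higher. Under that scaling 5626 of all 13608 genes tested were lower and 7982 higher. The median over all genes was 0.04 there, against -0.02 without it. No call was made under either scaling.

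The mitotic members open with 2 chromatin proteins that are used as markers of dividing cells. Mki67, which coats mitotic chromosomes, had 10.6, 9.37 and 6.78 FPKM with vehicle and 8.35, 12.6 and 10.4 FPKM with atorvastatin. Top2a, the topoisomerase that untangles sister chromatids, had 4.54, 4.85 and 3.10 FPKM with vehicle and 3.71, 5.05 and 3.88 FPKM with atorvastatin. Both were highest in atorvastatin library 2 and lowest in vehicle library 3, with overlapping groups. The log2 difference of Mki67 was 0.21 (SE 0.20, 95% interval -0.26 to 0.69) and that of Top2a 0.02 (SE 0.18, 95% interval -0.40 to 0.44), each with n = 3 per group.

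Cyclins and the kinase that they activate had low values. Ccna2, active from S phase into mitosis, had 3.67, 3.27 and 4.11 FPKM with vehicle and 3.10, 3.90 and 2.48 FPKM with atorvastatin. Cdk1 had 1.41, 1.28 and 1.39 FPKM with vehicle and 0.97, 1.31 and 1.04 FPKM with atorvastatin. In Cdk1 the groups overlapped in atorvastatin library 2 alone (log2 difference -0.17, SE 0.12), and in Ccna2 by that library too (-0.18, SE 0.15). Ccnb1 ranged from 1.09 to 1.55 FPKM with vehicle and from 1.02 to 1.70 FPKM with atorvastatin. Ccnb2 ranged from 2.75 to 4.25 FPKM with vehicle and from 3.35 to 3.66 FPKM with atorvastatin. Both B-type cyclins, which carry Cdk1 into mitosis, had log2 differences near 0 (-0.03 and -0.02). Their pseudogenes Ccnb1-ps and Ccnb2-ps were listed at 0.383 and 0.607 FPKM on average, and Ccna2 shares 510 of 4083 exon bases with Exosc9 on the other strand.

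The spindle checkpoint delays anaphase until every chromosome is attached. Bub1b (ENSMUSG00000040084, chromosome 2, 118598211 to 118641591, plus strand, mm10) encodes BubR1, part of the inhibitor of the anaphase-promoting complex. It had 3.84, 3.49 and 3.94 FPKM with vehicle and 4.55, 6.39 and 5.13 FPKM with atorvastatin, so each atorvastatin library lay above every vehicle library. The mean was 3.76 ± 0.236 FPKM (SD, n = 3) with vehicle and 5.36 ± 0.941 FPKM (SD, n = 3) with atorvastatin. Its log2 difference was 0.41 (SE 0.13, 95% interval 0.09 to 0.73), with an unadjusted p = 0.0191 and an adjusted p = 0.692 in limma over all genes. A single member of 31 at this unadjusted p is a smaller share than the background of 7.17%. The difference remained positive when any single library was left out, between 0.30 and 0.50, and the unadjusted p was over 0.05 without vehicle library 2 and without atorvastatin library 2.

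Other genes of the checkpoint and its target had overlapping groups, and no difference between them and Bub1b was tested. Bub1, the kinase that recruits BubR1 to kinetochores, had 0.97, 0.54 and 0.70 FPKM with vehicle and 0.77, 0.75 and 0.65 FPKM with atorvastatin, and was not tested. Cdc20, the activator that BubR1 holds in check, had 5.74, 6.50 and 5.90 FPKM with vehicle and 5.77, 5.63 and 6.17 FPKM with atorvastatin. Bub1 lay below 1 FPKM in every library, and Cdc20 varied by 1.155-fold over all 6 (log2 difference -0.04, SE 0.10). Ube2c, the ubiquitin-conjugating enzyme of the complex, had 2.47 to 2.66 FPKM with vehicle and 2.04 to 2.85 FPKM with atorvastatin (log2 difference -0.02, SE 0.12). Cdc20 shares 53 of 1868 exon bases with Elovl1, which had 28.2 FPKM on the other strand, and Ube2c shares 592 of 2600 with Tnnc2 at 0.355 FPKM.

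Mitotic kinases and the spindle genes had overlapping groups throughout. Plk1, which triggers entry into mitosis, had 3.79, 4.30 and 2.26 FPKM with vehicle and 3.48, 4.14 and 3.36 FPKM with atorvastatin. Aurka, which matures centrosomes, had 2.54, 2.26 and 1.46 FPKM with vehicle and 2.08, 2.42 and 2.02 FPKM with atorvastatin. In both genes the atorvastatin values lay within the vehicle range, whose lower end was vehicle library 3. Plk1 shares 156 of 2199 exon bases with Gm44985 (0.333 FPKM) on the other strand. Aurkb and Birc5, partners in the chromosomal passenger complex, had log2 differences of opposite sign that were within their errors, -0.10 (SE 0.14) and 0.06 (SE 0.16). Tpx2, which activates Aurka on the spindle, had 4.42, 3.03 and 2.73 FPKM with vehicle and 2.92, 3.15 and 2.24 FPKM with atorvastatin (log2 difference -0.21, SE 0.18). Its difference was the most negative of the mitotic members, and vehicle library 1 was its highest value.

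The motor Kif11, which pushes the poles apart, had 2.10 to 2.27 FPKM with vehicle and 1.88 to 3.10 FPKM with atorvastatin (log2 difference 0.08, SE 0.15). Cenpe, a kinetochore motor, had 0.89 to 1.63 FPKM with vehicle and 1.16 to 1.53 FPKM with atorvastatin (log2 difference 0.03, SE 0.16). Cenpf, a kinetochore protein, had 0.44, 0.34 and 0.15 FPKM with vehicle and 0.38, 0.50 and 0.39 FPKM with atorvastatin, and was not tested. Cenpe and Cenpf were lowest in vehicle library 3, and Kif11 and Cenpf highest in atorvastatin library 2.

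Of the 16 mitotic members tested 8 had lower means with atorvastatin and 8 higher. With equal sums without immunoglobulin and mitochondrial genes 4 were lower and 12 higher, where 7982 of all 13608 genes tested were higher. Over both phases, 24 of 31 members had a 95% interval that stayed within 0.5 log2 units of 0, and 30 had one within 1 unit, Gins2 being the exception. Differences on the log2(FPKM + 1) scale understate the change of genes at low levels.

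**Figure D2:**
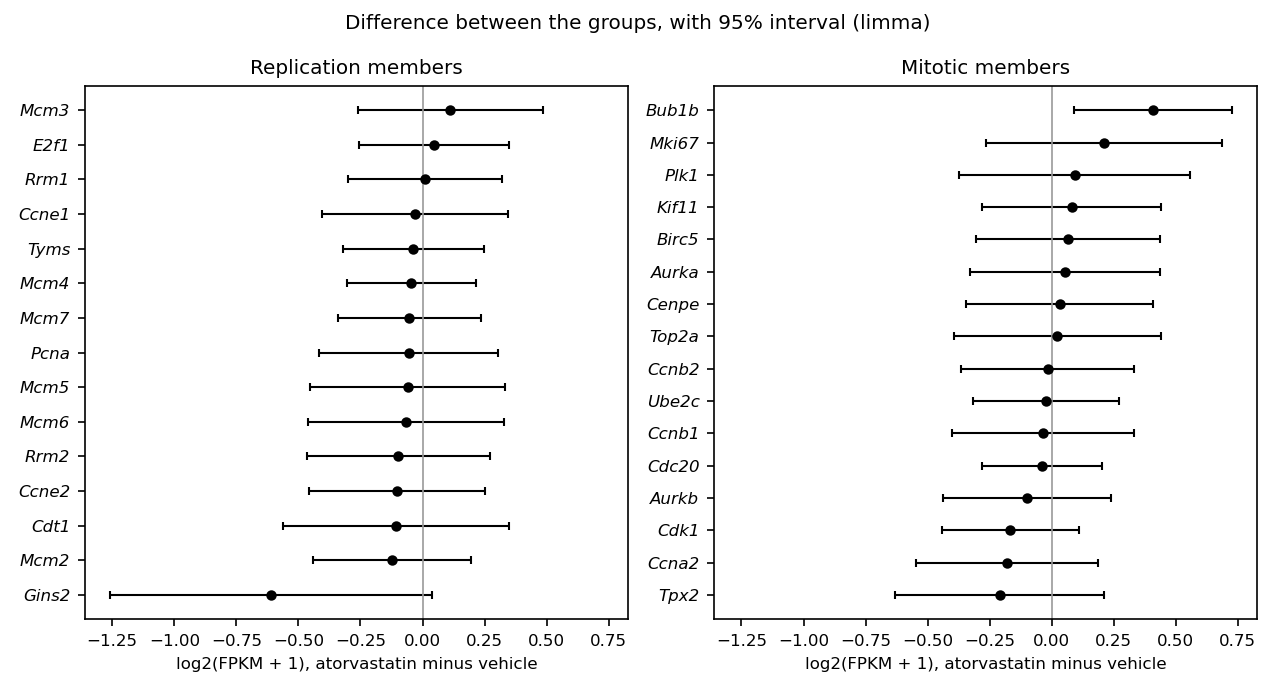
Difference of log2(FPKM + 1), atorvastatin minus vehicle, for the 15 replication and the 16 mitotic genes tested, with points for the estimate and lines for limma's 95% interval (n = 3 per group). The interval of Bub1b, 0.09 to 0.73, lies on one side of 0, and those of the other 30 genes include 0.

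The contrast of mitosis with replication was taken within each library as the mean log2(FPKM + 1) of the 18 mitotic members minus that of the 17 replication members. The replication mean was 2.65, 2.67 and 2.53 in vehicle libraries 1, 2 and 3 and 2.54, 2.60 and 2.49 in atorvastatin libraries 1, 2 and 3. The mitotic mean was 1.89, 1.82 and 1.69 with vehicle and 1.74, 1.97 and 1.75 with atorvastatin. The groups overlapped in both, and vehicle library 3 and atorvastatin library 2 were the extremes of the mitotic mean. Mitotic minus replication was -0.77, -0.84 and -0.83 with vehicle and -0.81, -0.63 and -0.74 with atorvastatin, so atorvastatin library 1 lay inside the vehicle range. The difference between the groups in that contrast was 0.09 (SE 0.056, n = 3 per group). Against the 10 Mcm, Pcna, Rrm and Cdt1 genes alone it was 0.07 (SE 0.07). With 1 library left out the first value ran from 0.04, without atorvastatin library 2, to 0.13, without atorvastatin library 1, and the second from 0.00, without atorvastatin library 2, to 0.10, without atorvastatin library 3. With a pseudocount of 0.1 the first was 0.13 (SE 0.085), and with a filter on a mean of 5 FPKM the second was 0.13 (SE 0.075). That filter left only 2 mitotic genes, Mki67 and Cdc20, and 9 replication genes, so its value is not one for the full lists. The group difference of the mitotic mean itself was 0.02 (SE 0.095) and turned to -0.06 without atorvastatin library 2 and to -0.04 without vehicle library 3. The replication mean differed by -0.07 (SE 0.055). It was -0.12 (SE 0.041) without vehicle library 3, -0.04 without atorvastatin library 3, -0.10 (SE 0.075) with a pseudocount of 0.1 and -0.01 (SE 0.101) with equal sums without immunoglobulin and mitochondrial genes.

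**Figure D3:**
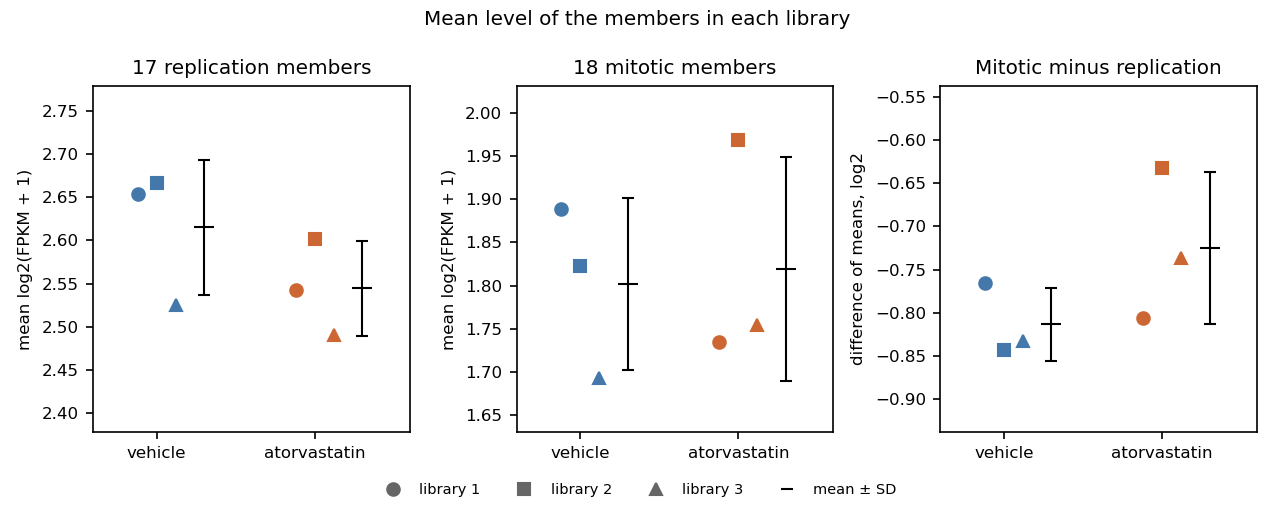
Mean log2(FPKM + 1) of the replication genes and of the mitotic genes, and the difference of these means, in each library, with the mean ± SD of each group (n = 3). The axes cover equal spans and do not start at 0. Atorvastatin library 2 is the highest in the mitotic mean (1.97) and in the difference (-0.63), and the groups overlap in all 3 panels.

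Atorvastatin library 2 was the highest for 8 of the 18 mitotic members and for 3 of the 17 replication members. Vehicle library 3 was the lowest for 6 mitotic and 6 replication members. The highest library exceeded the lowest by a median of 1.66-fold over the mitotic members and of 1.47-fold over the replication members, with Gins2 the widest at 6.84-fold.

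Markers of cells that could hold the dividing fraction were read in the same libraries. All 10 plasma cell markers were measured, with sums of 73860 to 81730 FPKM in the vehicle libraries and of 51440 to 113200 FPKM in the atorvastatin libraries, the highest in atorvastatin library 2. Jchain, which joins secreted IgA and IgM, had 3396, 2890 and 1397 FPKM with vehicle and 2279, 4117 and 1922 FPKM with atorvastatin. Igkc and Igha, the light chain and the IgA heavy chain constant regions, were highest in atorvastatin library 2 as well, at 79970 and 28661 FPKM, but lowest in atorvastatin library 3, at 36609 and 12648 FPKM. The mean log2(FPKM + 1) of the 10 markers was also highest in atorvastatin library 2 (8.21) and lowest in atorvastatin library 3 (7.35), while the lowest mitotic mean was in vehicle library 3 (7.49 in these markers). All 10 B cell markers had lower means with atorvastatin. The B cell sums were 346.6 to 459.3 FPKM with vehicle and 277.2 to 294.8 FPKM with atorvastatin. In limma 0 of the 10 passed over all genes. There were 6 at an unadjusted p under 0.05, where 4.04% of all genes were lower at that p. The groups did not overlap in 7, against a background of 8.85% lower. With equal sums without immunoglobulin and mitochondrial genes these counts were 4 and 5. The background there was 7.91% of all genes at that p in either direction. Groups did not overlap in 723 of 13608 genes that were lower. Of 10 germinal centre B cell markers 8 were tested, 6 of them higher, or 7 with equal sums without immunoglobulin and mitochondrial genes. Under that scaling 7982 of all 13608 genes tested were higher. None of the 8 markers passed the test (0 at an unadjusted p under 0.05 in limma). Their sums were 64.2 to 81.6 FPKM with vehicle and 61.6 to 81.7 FPKM with atorvastatin. The most abundant of these markers were Fas, Neil1 and Bcl6, and the sums rest largely on them. Fas alone ran from 20.9 to 46.4 FPKM over the libraries, and Gcnt3 lay below 1 FPKM in each. Whether the sums stand for germinal centre B cells was not tested. Of 15 epithelial markers 7 were tested, all with lower means with atorvastatin and 0 past the test (0 at an unadjusted p under 0.05), with sums of 35.5 to 48.7 FPKM with vehicle and 19.9 to 48.8 FPKM with atorvastatin. The most abundant epithelial markers were Epcam, with 8.27 to 13.6 FPKM over the libraries, Krt8 (2.77 to 11.9 FPKM) and Krt18 (1.90 to 8.60 FPKM). Below 1 FPKM in every library lay 7 of the 15: Krt20, Cdx1, Cdx2, Slc26a3, Tff3, Fabp2 and Lgr5, a marker of crypt stem cells. No marker of these 4 lists was at 0 in all libraries. Of 10 T cell markers 8 had lower means with atorvastatin and 2 higher (median log2 difference -0.12), and all 5 leukocyte markers had lower means (median -0.26). In limma 0 of either list passed, with 0 T cell markers and 1 leukocyte marker at an unadjusted p under 0.05. The groups did not overlap in 1 T cell and 2 leukocyte markers, all lower, against 8.85% of all genes. Of 10 macrophage markers 8 were tested, and all 8 had higher means (median 0.25), where 6382 of 13590 genes tested were higher. In limma 0 of these 8 had an unadjusted p under 0.05, and the groups overlapped in each. The part of these cells in the levels of the cell cycle genes was not tested.

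Other genes of the pathway, listed by role, gave no call either. Of 45 further replication genes 42 were tested, and 30 had lower means and 12 higher, with a median log2 difference of -0.12. With equal sums without immunoglobulin and mitochondrial genes this median was -0.06, where that over all genes tested was 0.04. The groups did not overlap in 9 that were lower, against a background of 8.85% of all genes, and in 1 that was higher, against 5.53%. With the equal sums scaling there were 5 and 2, against 723 lower and 1405 higher of all 13608 genes tested. In limma 0 passed over all genes, and 3 of the 42 had an unadjusted p under 0.05, where the background was 7.17% of all genes.

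Subunits of replication protein A, which coats single-stranded DNA, lay on opposite sides. Rpa1, the large subunit, had 5.27, 6.73 and 3.85 FPKM with vehicle and 7.32, 7.88 and 7.94 FPKM with atorvastatin (log2 difference 0.50, SE 0.18, limma adjusted p = 0.692). Rpa3, the small subunit, had 5.74, 5.98 and 7.65 FPKM with vehicle and 4.39, 4.02 and 4.31 FPKM with atorvastatin (log2 difference -0.50, SE 0.13, limma adjusted p = 0.692). In neither gene did the groups overlap, while Rpa2, the middle subunit and the most abundant gene of the list, had overlapping groups (0.13, SE 0.17). Gins4, a GINS subunit like Gins2 and next in abundance, had 13.0, 12.7 and 9.94 FPKM with vehicle and 9.75, 10.2 and 10.04 FPKM with atorvastatin (log2 difference -0.22, SE 0.13).

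Of 44 further mitotic genes 30 were tested, 18 of them lower and 12 higher, with a median log2 difference of -0.05. In limma 0 passed the test and 1 had an unadjusted p under 0.05, against a background of 7.17% of all genes. Pttg1, which encodes securin, was the most abundant, with 19.9 to 26.0 FPKM with vehicle and 17.3 to 23.0 FPKM with atorvastatin, and Cks2, a Cdk1 partner, had 12.7 to 17.6 and 12.6 to 15.5 FPKM. The groups did not overlap in 4 that were lower, against 8.85% of all genes, and in 1 that was higher, against 5.53%. With equal sums without immunoglobulin and mitochondrial genes there were 1 and 1, against 723 lower and 1405 higher of all 13608 genes. In limma 0 had an unadjusted p under 0.05 there, against 7.91% of all genes. Without that scaling, the smallest p-values belonged to the condensin subunits Smc4 and Smc2. Smc4 had 14.2, 11.7 and 13.2 FPKM with vehicle and 9.92, 10.4 and 10.7 FPKM with atorvastatin, without overlap of the groups (log2 difference -0.30, SE 0.11, limma adjusted p = 0.692). Smc2 had 4.05, 3.79 and 3.42 FPKM with vehicle and 2.26, 3.35 and 2.82 FPKM with atorvastatin, also without overlap (-0.33, SE 0.14, limma adjusted p = 0.692).

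Genes that act in G1 were tested for 19 of 24, with 11 lower and 8 higher and a median log2 difference of -0.07. In limma 0 passed the test and 1 had an unadjusted p under 0.05, against a background of 7.17% of all genes. The groups did not overlap in 2, both lower, against 8.85%. With equal sums without immunoglobulin and mitochondrial genes this held for 1 lower and 1 higher, against 723 and 1405 of all 13608 genes. Ccnd2, a D-type cyclin that starts the inactivation of Rb, had 51.5, 40.4 and 29.4 FPKM with vehicle and 35.9, 37.3 and 37.7 FPKM with atorvastatin, all of these within the vehicle range. E2f4, the E2F of the DREAM complex, had 22.1, 26.7 and 19.5 FPKM with vehicle and 23.4, 22.9 and 23.4 FPKM with atorvastatin. Both E2f4 and Ccnd2 were far above E2f1 on the FPKM scale, which is per length. Lin9, a subunit of the same complex, had 1.64, 1.26 and 1.59 FPKM with vehicle and 1.01, 1.02 and 1.05 FPKM with atorvastatin, without overlap (log2 difference -0.30, SE 0.11, limma adjusted p = 0.692). E2f3 had 2.18 to 2.60 FPKM with vehicle and 2.56 to 3.48 FPKM with atorvastatin (0.25, SE 0.13).

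All 7 CDK inhibitors were tested, with 4 higher and 3 lower, a median log2 difference of 0.01 and 0 past the test (0 at an unadjusted p under 0.05). With equal sums without immunoglobulin and mitochondrial genes 5 were tested, 4 higher and 1 lower, where 7982 of all 13608 genes were higher. Cdkn1a, which encodes p21, was more abundant than any cell cycle member, with 155.5, 144.1 and 179.2 FPKM with vehicle and 177.8, 142.5 and 163.2 FPKM with atorvastatin (log2 difference 0.01, SE 0.16). Cdkn1b, which encodes p27, had 12.1 to 16.7 FPKM with vehicle and 12.3 to 13.5 FPKM with atorvastatin. Cdkn2d, which encodes p19, an inhibitor of Cdk4 and Cdk6, had 3.42, 7.10 and 14.1 FPKM with vehicle and 12.9, 6.43 and 13.4 FPKM with atorvastatin. Its groups overlapped widely (0.49, SE 0.47), and vehicle library 1 was the lowest. Cdkn2b, which encodes p15, had 0.83 to 1.41 FPKM over all 6 libraries.

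Of 74 histone genes taken by symbol 19 were tested, 10 higher and 9 lower, with a median log2 difference of 0.01. In limma 0 passed the test and 1 had an unadjusted p under 0.05, against a background of 7.17% of all genes. The groups did not overlap in 2, both higher, against 5.53%. With equal sums without immunoglobulin and mitochondrial genes 18 were tested, 11 higher and 7 lower, where 7982 of all 13608 genes were higher. The 2 most abundant were H1f0, a linker histone that is not tied to replication and entered through the symbol rule, with 22.8 to 33.6 FPKM with vehicle and 23.9 to 32.6 FPKM with atorvastatin, and Hist1h1c, with 21.3 to 28.8 and 21.7 to 34.1 FPKM. Hist1h3e had 0.81, 1.22 and 0.65 FPKM with vehicle and 2.28, 1.51 and 1.75 FPKM with atorvastatin, without overlap (log2 difference 0.59, SE 0.16, limma adjusted p = 0.692). Its 3 atorvastatin values were enough to pass the filter, which selects for a difference of that sign. Hist1h3a had 1.90, 1.51 and 1.44 FPKM with vehicle and 1.04, 0.82 and 1.53 FPKM with atorvastatin, the opposite sign with overlapping groups (-0.31, SE 0.16).

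**Figure D4:**
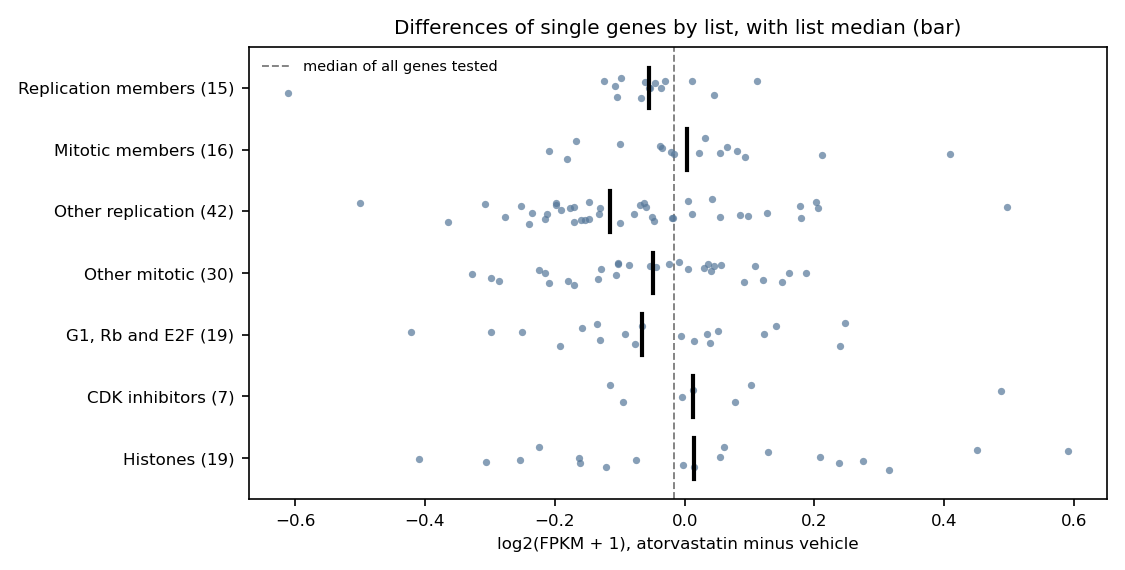
Difference of log2(FPKM + 1), atorvastatin minus vehicle, of each tested gene by list, with the number tested in brackets, a bar at the median of the list and a dashed line at the median of all genes tested (-0.02). The medians lie between -0.12 for the other replication genes and 0.01 for the CDK inhibitors and the histone genes, and single genes spread over both sides of 0 in every list.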

How the data were processed

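Bulk RNA-seq covered 3 vehicle and 3 atorvastatin libraries of lamina propria cells. The authors deposited FPKM, per the file headers. The submitters' processing notes name FastQC 0.11.2, Bowtie and mm10; quantifier, annotation and strand counting: not given in the sources used here. Symbols and exon lengths came from GENCODE mouse release 21, in which 51920 IDs had the position of the files and 260 had no symbol; all 233 listed symbols matched. Genes were kept at 1 FPKM or more in 3 or more libraries. On log2(FPKM + 1), limma 3.58.1 (limma-trend, R 4.3.3) was run without covariates, with Benjamini-Hochberg adjustment over all genes and a false discovery rate of 0.05; the script was tested on simulated data. Means over members were described, not tested. Members and lists were chosen with earlier results of these data known. The text names all 35 members and, of each pathway list, the 2 most abundant genes and the 2 with the smallest p. It also names the 3 most abundant plasma cell, germinal centre and epithelial markers. Markers below 1 FPKM in every library were named after their values were seen. Alternatives changed pseudocount, filter, scaling, variance estimate, replicate block and libraries; removing a trend with gene length, and list counts under other scalings, were added after seeing the data.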

Additional observations from a re-analysis of the deposited data

How the results depend on the processing

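Genes called over all features numbered 0 in every setting that kept all 6 libraries, and 0 to 2 when 1 library was left out, with 1 called without atorvastatin replicate 1 and 2 called without atorvastatin replicate 3. None of the 31 members passed the test in any setting run. Members at an unadjusted p under 0.05 numbered 0 to 1 when 1 library was left out, and members whose groups did not overlap numbered 1 to 7; the 7 of 30 without atorvastatin replicate 2 compare with 27.7% of all genes in that setting, where fewer libraries are compared. With a filter on a mean of 5 FPKM, which leaves 11 members, both counts were 0. With a replicate block 2 members had an unadjusted p under 0.05, Bub1b and Gins2. The libraries share replicate numbers, but deviations of same-numbered libraries correlated at -0.109, 0.137 and -0.015, so the numbers were not taken to pair them; over all genes the replicate block gave 852 at an unadjusted p under 0.05 against 974.

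Log2 differences that changed sign with equal sums without immunoglobulin and mitochondrial genes were 0.025 for Mcm4, 0.004 for Mcm5, 0.003 for Mcm6, 0.011 for Mcm7, 0.017 for Pcna, 0.001 for Tyms, 0.02 for Ccne1, 0.009 for Ccnb1, 0.042 for Ccnb2, 0.024 for Cdc20 and 0.032 for Ube2c. With the length trend removed they were 0.02 for Pcna, -0.064 for Rrm1, 0.037 for Ccne1, -0.03 for Top2a, 0.105 for Ccnb2, 0.061 for Cdc20, -0.016 for Cenpe and 0.047 for Ube2c. When 1 library was left out, the ranges of the members that changed sign were -0.1 to 0.162 for Aurka, -0.086 to 0.149 for Birc5, -0.162 to 0.047 for Ccnb1, -0.157 to 0.086 for Ccnb2, -0.173 to 0.062 for Ccne1, -0.071 to 0.007 for Cdc20, -0.29 to 0.064 for Cdt1, -0.112 to 0.126 for Cenpe, -0.012 to 0.144 for E2f1, -0.066 to 0.189 for Kif11, -0.043 to 0.202 for Mcm3, -0.222 to 0.058 for Mcm5, -0.227 to 0.024 for Mcm6, -0.135 to 0.027 for Mcm7, -0.146 to 0.064 for Pcna, -0.116 to 0.234 for Plk1, -0.07 to 0.111 for Rrm1, -0.136 to 0.12 for Top2a, -0.083 to 0.022 for Tyms and -0.094 to 0.076 for Ube2c. In all other settings no sign changed, and 10 members changed sign in none of the settings run: Aurkb, Bub1b, Ccna2, Ccne2, Cdk1, Gins2, Mcm2, Mki67, Rrm2 and Tpx2. The median over all genes tested was -0.016 in the main fit, 0.044 with those equal sums and 0.016 with the length trend removed. The cause of the sign changes was not tested. Fragment counts were not used, so the depth behind a low FPKM is known only roughly, and 3 libraries per group limit what differences can be detected.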
